A study of Mus musculus with 8 samples.

Results

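Fibrillins, elastin and fibulins are the structural proteins of elastic fibres and of the microfibrils that carry them. The transcripts of 10 genes coding for these proteins and their closest partners (Fbn1, Fbn2, Eln, Fbln1, Fbln2, Fbln5, Efemp2, Mfap2, Mfap5 and Emilin1) were followed, out of 53465 gene identifiers counted. The genes were taken by symbol, and the set was selected on measured values of the same comparison, hypoxia against normoxia, which were already known. The levels and differences of these 10 genes are therefore given as a description, without a test of the set and without p-values of single genes.

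The samples were mesenchymal stem cells (MSCs, stromal cells able to form bone, fat and cartilage cells) from the bones of wild-type C57BL/6 N male mice aged between 3 and 5 months, purified by flow cytometry on day 12 per the labels, with a gate against CD45 and Ter-119 and for Sca-1 and CD140a according to the methods of the study. The sorted cells were divided between 2% O2 (hypoxia, the group kept at the low oxygen level at which the cultures were started) and 21% O2 (normoxia) and grown for a further week in α-MEM. No gene was altered and no agent was added in either group. RNA-seq gave 4 samples per group, numbered 1 to 4 in each.

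An elastic fibre is built on a scaffold of microfibrils, long polymers of fibrillin decorated with the small glycoproteins MFAP2 and MFAP5. Tropoelastin, the product of Eln, is laid on this scaffold with the help of fibulin-4 (Efemp2) and fibulin-5 (Fbln5) and is then cross-linked by lysyl oxidases, while fibulin-1, fibulin-2 and EMILIN-1 are found within or at the edge of the mature fibre. Fibrillin microfibrils also hold latent TGF-β and BMPs in the matrix, and in bone fibrillin-1 and fibrillin-2 are known to affect bone formation and turnover through these growth factors. Fibrillin-2 is mainly known from developing tissue, and fibrillin-1 from tissue of all ages.

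To place the genes on the genome, the 250 bases before annotated transcription starts were read from RefSeq on GRCm38.p6, the assembly of the mm10 build to which the reads had been aligned. The table used held 12 such promoters of 7 of the genes, and Fbn2, Eln and Mfap5 were not among them. The letters ACGTG and GCGTG, the core of the element bound by hypoxia-inducible factors, were searched on both strands. The promoters of Fbln5, Fbln1 and Efemp2 that lie wholly before the annotated gene are shown, because the region is not transcribed as part of the gene and holds such letters; capitals mark the cores, which read CACGC or CACGT where the match is on the other strand.
Fbln5 (chr12:101819120-101819369, minus strand): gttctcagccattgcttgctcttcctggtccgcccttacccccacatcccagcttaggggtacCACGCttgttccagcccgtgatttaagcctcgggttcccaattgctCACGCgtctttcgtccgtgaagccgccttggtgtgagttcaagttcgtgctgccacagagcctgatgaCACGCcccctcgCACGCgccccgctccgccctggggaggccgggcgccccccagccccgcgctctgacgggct
Fbln1 (chr15:85205699-85205948, plus strand): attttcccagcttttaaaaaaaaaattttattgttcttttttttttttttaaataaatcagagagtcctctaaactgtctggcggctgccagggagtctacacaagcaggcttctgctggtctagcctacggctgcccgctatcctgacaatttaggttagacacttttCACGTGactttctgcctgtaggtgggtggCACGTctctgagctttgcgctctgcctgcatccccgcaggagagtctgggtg
Efemp2 (chr19:5473696-5473945, plus strand): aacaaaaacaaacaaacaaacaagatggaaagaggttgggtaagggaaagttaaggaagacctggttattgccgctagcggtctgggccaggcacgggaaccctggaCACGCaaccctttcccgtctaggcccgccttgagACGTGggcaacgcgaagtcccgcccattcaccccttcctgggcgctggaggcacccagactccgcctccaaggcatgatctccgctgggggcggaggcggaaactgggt
Fbln5 had GCGTG at 4 places, all on the minus strand relative to the gene and beginning 187, 141, 73 and 61 bases before the start. Fbln1 had ACGTG on both strands of one palindrome, 81 and 80 bases before the start, and again 52 bases before it. Efemp2 had GCGTG 143 bases and ACGTG 109 bases before the start. Of the 12 promoters 6 held a core, in 5 of the 7 genes, and the promoters of Fbn1 and Fbln2 in the table held none of these letters. ACGTG or GCGTG was held by 38.6% of all 32851 promoters given there, and a match describes the sequence only.

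Each sample held between 12898291 and 25132141 counts, and hypoxia replicate 1 was by far the deepest, the other 7 holding at most 13433824. Levels are given as CPM, read counts scaled to a common library size with TMM factors. A floor of 3 counts, below which no level was read, lay between 0.125 and 0.241 CPM and covers counting error only. Each of the 10 genes lay above this level in all 8 samples and passed the filter on low counts, as did 14369 genes in all. The markers of the sorted population were present in both groups, with a summed level of the 6 markers between 1646 and 1970 CPM in hypoxia and between 1645 and 2008 CPM in normoxia. Blood and macrophage markers, which the gate should have removed, were not at 0: the 6 markers summed to between 467 and 922 CPM in hypoxia and between 580 and 1078 CPM in normoxia, and Ptprc, which codes for CD45, stood at 13 ± 3.59 and 13.8 ± 4.18 CPM (SD, n = 4). The globin genes Hbb-bs and Hba-a1, markers of red cells, were at 0 in every sample, and the 5 endothelial markers summed to at most 2.65 CPM. In these bulk samples fewer cells of one type and less RNA per cell cannot be told apart.

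Most of the microfibril and elastin genes had lower transcript levels in normoxia. Of the 10 genes, 7 (Fbn1, Fbn2, Eln, Fbln5, Efemp2, Mfap2 and Mfap5) were called lower in normoxia by limma-trend at an adjusted p-value of 0.05, and the other 3 (Fbln1, Fbln2 and Emilin1) were not called; of all genes tested 16.5% were called lower and 18.0% higher. Since the set was selected on this same difference, nothing is read from that count. With the replicate number as a block, 8 were called lower and 1 higher, where 22.7% and 23.3% of all genes were called. In 7 genes every normoxia sample lay below every hypoxia sample, a pattern that 15.5% of all tested genes showed. The median log2 change over the 10 genes was -0.60, and over all tested genes it was 0.0049.

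**Figure D1:**
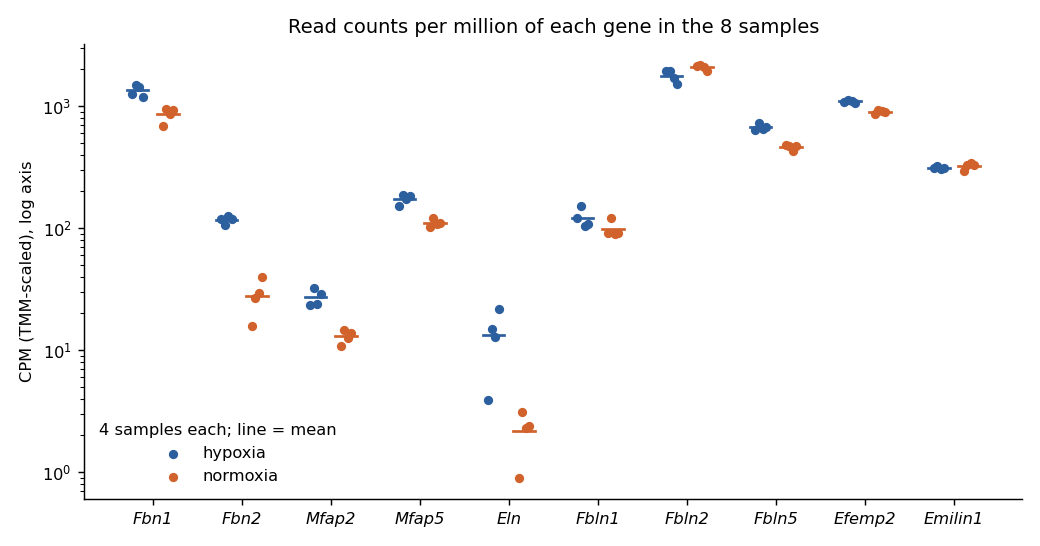
Read counts scaled to library size (CPM with TMM factors, log axis) of the 10 genes in each of the 4 hypoxia (blue) and 4 normoxia (orange) samples, with a line at each group mean. The 2 groups are apart for Fbn1, Fbn2, Mfap2, Mfap5, Eln, Fbln5 and Efemp2 and overlap for Fbln1, Fbln2 and Emilin1.

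Fbn1 (ENSMUSG00000027204, chr2:125300594-125507993, minus strand) codes for fibrillin-1, the main microfibril protein of adult tissue. Its level was 1265, 1482, 1436 and 1198 CPM in hypoxia replicates 1 to 4 and 685, 949, 865 and 928 CPM in normoxia replicates 1 to 4. The lowest hypoxia sample thus stood above the highest normoxia sample, and normoxia replicate 1 was the lowest of all. The group means were 1345 ± 135 and 857 ± 120 CPM (SD, n = 4), 1.57-fold higher in hypoxia, with a log2 change from hypoxia to normoxia of -0.66 ± 0.11 (SE). Between same-numbered samples the log2 difference lay between -0.89 and -0.37.

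Fbn2 (ENSMUSG00000024598, chr18:58008623-58210487, minus strand) codes for fibrillin-2, the fibrillin best known from developing tissue. It stood at 119, 107, 125 and 119 CPM in hypoxia and at 15.8, 27, 29.4 and 39.8 CPM in normoxia. The hypoxia samples were close together, whereas the normoxia samples were spread widely with all of them far below. The means were 118 ± 7.44 and 28 ± 9.84 CPM, 4.2-fold higher in hypoxia, and the log2 change was -2.13 ± 0.20. The within-group SD on the log2 scale was 0.093 in hypoxia and 0.55 in normoxia. Pair 1 had the largest difference, at -2.89, and pair 4 the smallest, at -1.58. Only 8 of the 14369 tested genes had a log2 change below that of Fbn2.

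Since fibrillin-1 and fibrillin-2 build the same microfibrils, the transcripts of their genes were set against each other in counts per kilobase of exon. On this scale Fbn2 made up 7.93, 6.23, 7.41 and 8.38% of the fibrillin transcripts in hypoxia and 2.08, 2.55, 3.03 and 3.79% in normoxia. The groups did not overlap, and Fbn1 was the main fibrillin transcript in all 8 samples. The mean share was 7.49 ± 0.925% in hypoxia and 2.86 ± 0.73% in normoxia (SD, n = 4). The log2 ratio of Fbn2 to Fbn1 was -3.64 ± 0.20 in hypoxia and -5.12 ± 0.38 in normoxia, a difference of -1.49 that corresponds to a 2.8-fold higher ratio in hypoxia. It lay between -2.02 and -1.22 in the 4 pairs, and it does not depend on library scaling, since both genes come from the same sample. Leaving out one sample at a time gave differences between -1.64 and -1.34.

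**Figure D2:**
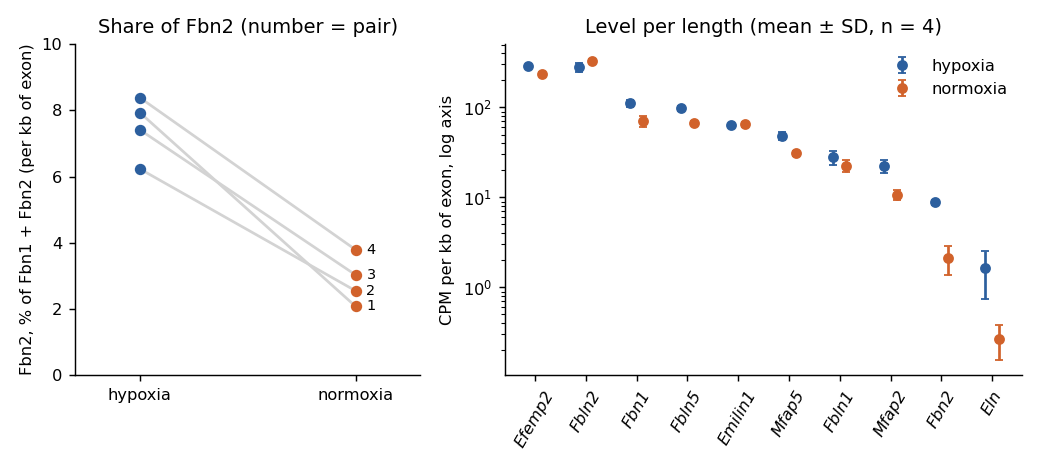
Left, the share of Fbn2 in the summed fibrillin transcripts (percent, per kilobase of exon) in each sample, with grey lines joining same-numbered samples; right, the mean level per kilobase of exon (CPM, log axis) of the 10 genes with SD over 4 samples. The share of Fbn2 was between 6.23 and 8.38% in hypoxia and between 2.08 and 3.79% in normoxia, and Eln had the lowest level per length in both groups.

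The small microfibril-associated glycoproteins were also lower in normoxia, Mfap2 by more than Mfap5. Mfap2 (ENSMUSG00000060572, chr4:141010418-141015984, plus strand), whose product MAGP-1 binds fibrillin and TGF-β, stood at 23.5, 32.6, 23.9 and 28.7 CPM in hypoxia and at 10.8, 14.7, 12.5 and 13.9 CPM in normoxia. Every hypoxia sample was above every normoxia sample. The means were 27.2 ± 4.3 and 13 ± 1.69 CPM, 2.09-fold higher in hypoxia, with a log2 change of -1.05 ± 0.13. After removal of the trends with GC content and length the log2 change was -0.78.

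Mfap5 (ENSMUSG00000030116, chr6:122505845-122529290, plus strand), which codes for the related MAGP-2, stood at 152, 187, 173 and 182 CPM in hypoxia and at 103, 120, 109 and 111 CPM in normoxia. Again the groups were apart, and in both of them replicate 1 was the lowest and replicate 2 the highest. The log2 change was -0.65 ± 0.073, equal to a 1.57-fold higher mean in hypoxia, and it varied little between the pairs (-0.71 to -0.56). Per kilobase of exon, Mfap5 exceeded Mfap2 by 2.17-fold in hypoxia and 2.89-fold in normoxia, so that the log2 ratio of Mfap2 to Mfap5 was -1.12 ± 0.13 and -1.53 ± 0.11.

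Eln (ENSMUSG00000029675, chr5:134702593-134747323, minus strand) codes for tropoelastin, the elastic core of the fibre. It was the least abundant of the 10 genes, with 94, 186, 165 and 282 counts in the hypoxia samples and 12, 43, 32 and 32 counts in the normoxia samples. In CPM these were 3.93, 14.9, 12.9 and 21.7 against 0.891, 3.1, 2.31 and 2.41. Hypoxia replicate 1 stood well below the other hypoxia samples and only just above normoxia replicate 2, so the groups were apart by a narrow gap. The means were 13.4 ± 7.34 and 2.18 ± 0.926 CPM (SD, n = 4), 6.14-fold higher in hypoxia, and the log2 change was -2.39 ± 0.45. Only 2 tested genes had a lower log2 change, but the within-group SD of 0.88 on the log2 scale was the largest of the 10 genes. The difference was -1.91 in pair 1 and -3.07 in pair 4, and the fitted change was -2.87 without hypoxia replicate 1 and -2.07 without normoxia replicate 1.

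The fibulins did not share one direction. Fbln5 (ENSMUSG00000021186, chr12:101746565-101819055, minus strand), the integrin-binding fibulin that guides tropoelastin onto microfibrils, stood at 637, 725, 654 and 681 CPM in hypoxia and at 479, 469, 429 and 470 CPM in normoxia. The groups were well apart and each was narrow. The means were 674 ± 38.6 and 462 ± 22.3 CPM, a 1.46-fold difference, and the log2 change was -0.55 ± 0.062.

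Efemp2 (ENSMUSG00000024909, chr19:5473954-5482517, plus strand), whose product fibulin-4 brings lysyl oxidase to tropoelastin, stood at 1084, 1122, 1110 and 1064 CPM in hypoxia and at 868, 924, 913 and 894 CPM in normoxia. Its samples were the closest together of the 10 genes, with a within-group SD of 0.037 on the log2 scale, and the groups were apart although their means differed by 1.22-fold only. The log2 change was -0.28 ± 0.056, and with the correction for GC content and length it was -0.18 and still called. The log2 ratio of Fbln5 to Efemp2, per kilobase of exon, moved from -1.57 ± 0.075 to -1.83 ± 0.097.

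Fbln1 (ENSMUSG00000006369, chr15:85205949-85286535, plus strand), which codes for a fibulin of elastic fibres and basement membranes, stood at 122, 152, 104 and 108 CPM in hypoxia and at 91.4, 120, 90.1 and 90.6 CPM in normoxia. Replicate 2 was the highest sample of both groups, and normoxia replicate 2 lay within the hypoxia range. The log2 change of -0.30 ± 0.12 was not called, while the sample from normoxia was lower in each of the 4 pairs, by -0.41 to -0.20, and with the replicate block the gene was called lower. Without normoxia replicate 2 the change was -0.41 and was called, with upper quartile scaling it was -0.33 and was called, and without hypoxia replicate 2 it was -0.18.

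Fbln2 (ENSMUSG00000064080, chr6:91212455-91272540, plus strand), whose product links fibrillin to other matrix proteins, went the other way. It stood at 1957, 1938, 1715 and 1519 CPM in hypoxia and at 2124, 2189, 2095 and 1925 CPM in normoxia. Normoxia replicate 4 lay within the hypoxia range, so the groups overlapped, but in each of the 4 pairs the normoxia sample was higher. The log2 change of 0.23 ± 0.09 was not called without the block and was called higher with it; it was also called, at 0.37, after the correction for GC content and length, at 0.32 with scaling by library size only, by DESeq2, and without hypoxia replicate 1 or without hypoxia replicate 2. The log2 ratio of Fbln1 to Fbln2 per kilobase of exon was -3.34 ± 0.18 in hypoxia and -3.87 ± 0.17 in normoxia.

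Emilin1 (ENSMUSG00000029163, chr5:30913402-30921277, plus strand), which codes for a glycoprotein at the border of elastin and microfibrils, differed least. It stood at 313, 322, 303 and 309 CPM in hypoxia and at 292, 332, 340 and 327 CPM in normoxia. The hypoxia values lay within the normoxia range, and the log2 change was 0.048 ± 0.06. After the correction for GC content and length it was 0.24 and was called higher, with and without the block.

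**Figure D3:**
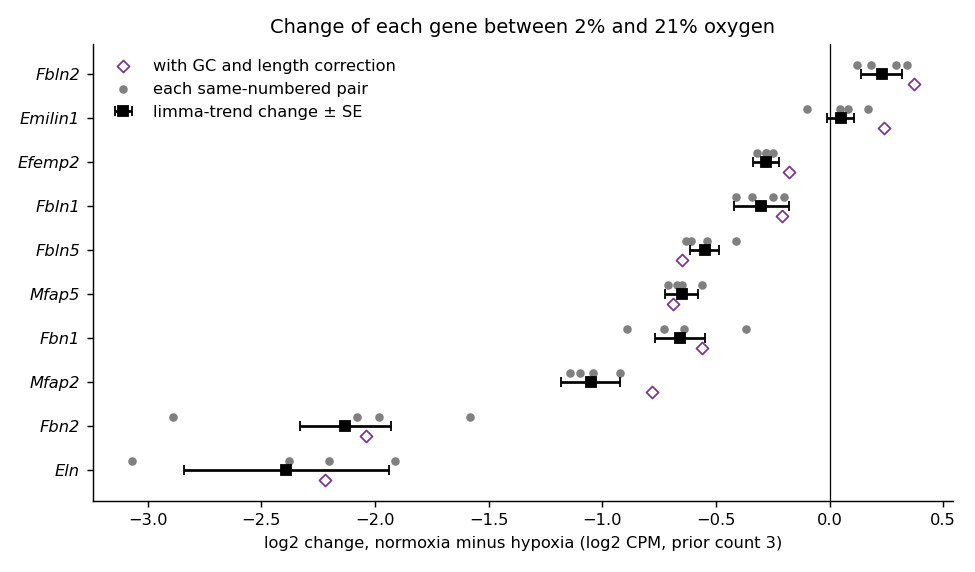
Log2 change from hypoxia to normoxia of the 10 genes: black squares with bars, the limma-trend estimate ± SE; grey points, the 4 same-numbered pairs; open diamonds, the estimate after correction for GC content and length. Eln and Fbn2 lie farthest below 0, at -2.39 and -2.13, and Fbln2 and Emilin1 lie above it.

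Between genes, levels were compared per kilobase of exon. In hypoxia the order was Efemp2 (289 ± 6.92 CPM per kilobase) and Fbln2 (280 ± 32.5), whose samples overlapped, then Fbn1 (111 ± 11.2) and Fbln5 (97.5 ± 5.59), which also overlapped. With the length of the longest transcript in place of the exon length, Fbln5 came before Fbn1. Emilin1 (63.1 ± 1.61), Mfap5 (48.3 ± 4.34) and Fbln1 (27.8 ± 5.04) followed, each apart from the gene above it. Fbln1 overlapped Mfap2 (22.4 ± 3.55), and Fbn2 (8.9 ± 0.563) and Eln (1.65 ± 0.906) closed the order, each apart from its neighbour.

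In normoxia Fbln2 led with 327 ± 17.7 CPM per kilobase, apart from Efemp2 at 238 ± 6.41. Fbn1 (70.6 ± 9.89), Fbln5 (66.8 ± 3.22) and Emilin1 (65.4 ± 4.33) overlapped their neighbours in this order and cannot be ranked, and with the length of the longest transcript in place of the exon length their order changed. Mfap5 (30.8 ± 1.95), Fbln1 (22.5 ± 3.39), Mfap2 (10.7 ± 1.39), Fbn2 (2.12 ± 0.745) and Eln (0.269 ± 0.114) each stood apart. The log2 ratio of Eln to Fbn1 per kilobase was -6.30 ± 1.06 in hypoxia, with samples between -7.75 and -5.20, and -8.16 ± 0.58 in normoxia, with samples between -9.00 and -7.68, so the groups overlapped. The size of this ratio depends on the length used, since the exons of Eln cover 8098 bases together and its longest transcript 3853 bases, whereas the difference between the groups does not. Without regard to length, the 10 genes together took between 5231 and 6083 CPM in hypoxia and between 4669 and 5148 CPM in normoxia.

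Some of these genes overlap a gene on the opposite strand, and the strand setting of the counting is not given in the sources used here. Efemp2 shares 173 exon bases with Mus81, which had 1766 counts over all samples. Gm9913, which overlaps Fbn1, had 73 counts, Gm26507, which overlaps Fbn2, had 75, and Gm30003, at the start of Eln, had 0.

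The genes whose pattern over the 8 samples was nearest to that of Fbn2 were sought among 9394 genes with a mean log2 CPM of at least 3, by the root mean square difference of log2 CPM centred on each gene's mean. The nearest were H19 (0.32), Selenbp1 (0.37), Aoc3 (0.38), Car9 (0.40) and Siglec1 (0.41). H19 is an imprinted long non-coding RNA of fetal tissue, Car9 codes for a carbonic anhydrase well known as a target of hypoxia-inducible factors, and Siglec1 is a macrophage gene. Of the other genes among the 10, Eln was below this level and was not compared, Mfap2 came nearest at rank 31 (0.63) and Fbn1 was at rank 152 (0.78). The ranks of the wider pathway genes were not followed. When each profile was first scaled to unit SD, so that the size of the change no longer counted, none of these 5 genes stayed among the first 5 (0 shared), and Kdm6b, Cbfb, Rfx1, Pld2 and Tsc2 took their place.

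Genes of the wider pathway moved in both directions. Of 64 other genes of elastic fibre assembly, anchoring, cross-linking and turnover, 54 passed the filter. Of these, 12 were called lower in normoxia, 13 higher and 29 were not called (limma-trend, adjusted over all 14369 genes), and their median log2 change was 0.053. With the replicate block 15 were lower and 18 higher. Of all tested genes 16.5% were called lower and 18.0% higher, and with the block 22.7% and 23.3%. The counts of the pathway and of its groups are therefore given as a description only. Scaling by library size only gave 11 lower and 19 higher, and over all genes it turned 2378 lower and 2592 higher calls into 1575 lower and 3611 higher ones.

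Among the glycoproteins and proteoglycans found with the fibre 5 of 10 tested genes were lower and 3 higher, and with the replicate block a further gene, Efemp1 (0.42 ± 0.17), was called higher. Mfap4, whose product binds tropoelastin and fibrillin-1, had the largest fall, from 6.73 ± 3 to 2.3 ± 1.29 CPM (log2 change -1.48 ± 0.35, adjusted p = 0.0067 by limma-trend). Hspg2, coding for perlecan, a heparan sulfate proteoglycan that binds fibrillin-1, fell from 2708 ± 372 to 1480 ± 126 CPM (log2 change -0.87 ± 0.10, adjusted p = 0.00013). Vcan, coding for versican, which binds fibrillin-1 and hyaluronan, rose from 127 ± 44.7 to 269 ± 27.2 CPM (log2 change 1.13 ± 0.18, adjusted p = 0.00069). Of the 4 latent TGF-β binding proteins, Ltbp3 (-0.50 ± 0.056, adjusted p = 0.00011) and Ltbp4 (-0.49 ± 0.13, adjusted p = 0.0099) fell. Ltbp1 and Ltbp2 were not called, although Ltbp1 (0.24 ± 0.12) was called higher with the replicate block. With the correction for GC content and length and the block, Ltbp2 was also called (limma-trend, adjusted p = 0.0011). LTBP-4 is also needed for elastic fibre assembly by fibulin-5; the change of its gene was -0.29, and still called, after the correction for GC content and length.

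The cross-linking enzymes moved in both directions. Loxl1, a lysyl oxidase that elastin homeostasis depends on, fell from 169 ± 15.5 to 99.4 ± 4.09 CPM (log2 change -0.76 ± 0.068, adjusted p = 4.8e-05). Loxl3 rose from 90.1 ± 14.4 to 145 ± 21.2 CPM (0.68 ± 0.12, adjusted p = 0.0013), and Loxl4 from 56 ± 18.9 to 82.5 ± 16.2 CPM (0.59 ± 0.20, adjusted p = 0.038), a call that 10 of the alternative settings did not give. Lox itself, far more abundant at 11366 ± 972 and 10332 ± 542 CPM, was not called (-0.14 ± 0.11, adjusted p = 0.38). It was not called with the replicate block either. With the correction for GC content and length and the block it was called (limma-trend, adjusted p = 2.7e-05).

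Of 7 tested proteases able to degrade elastin 3 were called higher and 4 were not called. Among the latter, Ctsl (0.16 ± 0.059) was called higher with the replicate block. With the block and the correction for GC content and length, Ctsl was not called (limma-trend, adjusted p = 0.97). Mmp12, the macrophage elastase, rose from 2.37 ± 0.49 to 4.69 ± 1.24 CPM (log2 change 0.91 ± 0.21, adjusted p = 0.006) and Mmp3, stromelysin-1, from 6.09 ± 1.51 to 10.7 ± 1.6 CPM (0.80 ± 0.17, adjusted p = 0.0034). Ctsk, coding for cathepsin K, rose from 129 ± 3.72 to 178 ± 7.43 CPM (0.46 ± 0.053, adjusted p = 0.00012). Mmp12 and Ctsk are also expressed by macrophages and osteoclasts. Beside them, the macrophage marker Lyz2 was higher in normoxia (354 ± 73.3 and 523 ± 125 CPM, adjusted p = 0.022), while the other 5 of the 6 blood and macrophage markers were not called. With the replicate block Csf1r (-0.59 ± 0.26), Cd68 (-0.28 ± 0.25) and Itgam (-0.46 ± 0.23) were called lower, opposite in direction to Lyz2. With the block and the correction for GC content and length, Cd68 was not called and Adgre1 was (limma-trend, adjusted p = 0.076 and 0.0032). The part of these markers in the protease values was not tested.

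Of 6 tested ADAMTS and ADAMTS-like genes, a family that includes fibrillin-binding proteins, only Adamtsl3 was called (0.33 ± 0.072, adjusted p = 0.0043). With the correction for GC content and length and the block, Adamtsl4 and Adamts10 were also called (limma-trend, adjusted p = 0.00042 and 0.034). Of 7 genes for processing and folding only Furin, which codes for the protease that matures profibrillin, was called, at -0.23 ± 0.066 (adjusted p = 0.019), and 4 of the alternative settings, the correction for GC content and length among them, did not give this call. With the replicate block 3 of these 7 genes were called lower and 2 higher. When the correction for GC content and length was added to the block, only Glb1 among them was called (limma-trend, adjusted p = 0.047). Of 8 integrin subunits Itgb3 (-0.70 ± 0.15, adjusted p = 0.0044) and Itgav (-0.32 ± 0.063, adjusted p = 0.0021) fell, and Itgb5 (-0.13 ± 0.064) was called lower with the replicate block only. The products of Itgav and Itgb3 form together the αvβ3 receptor, which binds the RGD motif of fibrillin-1. Itgb1, coding for the shared β1 chain, rose (0.44 ± 0.075, adjusted p = 0.001). With the correction for GC content and length, Itgav was at -0.50 and Itgb1 at 0.28. Of 6 tested growth factors that microfibrils or LTBPs hold, 1 was called lower and 3 higher. Tgfb1 fell (-0.46 ± 0.13, adjusted p = 0.013), and Bmp4 (0.33 ± 0.086, adjusted p = 0.012) and Tgfb3 (0.41 ± 0.15, adjusted p = 0.047) rose. A call of Tgfb3 was not given by 11 of the alternative settings. Tgfb2 also rose (0.21 ± 0.068, adjusted p = 0.034), but was not called with the correction for GC content and length and the block (adjusted p = 0.13).

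**Figure D4:**
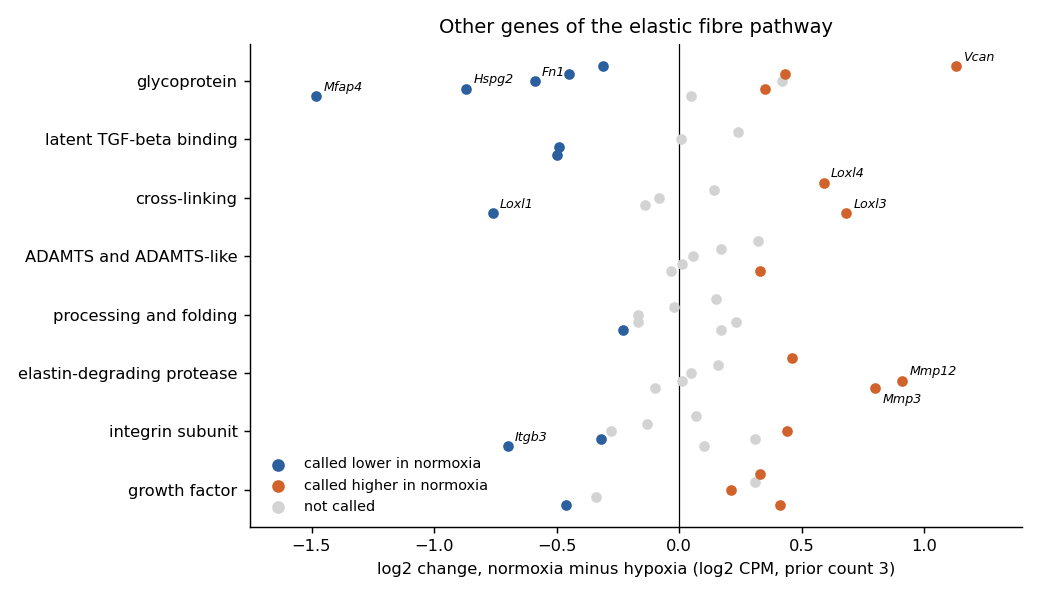
Log2 change from hypoxia to normoxia of the 54 other elastic fibre genes that passed the filter, by group; blue points were called lower in normoxia (12 genes), orange points higher (13) and grey points not called (29), by limma-trend at an adjusted p-value of 0.05. The glycoproteins and cross-linking enzymes hold genes with large changes of both signs.

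Markers of other mesenchymal cells moved with the same contrast. All 6 smooth muscle markers (Myh11, Cnn1, Acta2, Tagln, Des and Smtn) were called lower in normoxia, where 16.5% of all tested genes were. With the correction for GC content and length and the block, Tagln and Des were not called (limma-trend, adjusted p = 0.06 and 0.081). The summed level of the 6 markers lay between 3154 and 4317 CPM in hypoxia and between 2386 and 2787 CPM in normoxia. Acta2, at 3325 ± 464 and 2357 ± 167 CPM, made up most of this sum. Hypoxia replicate 1 had the highest sum, 4317 CPM, and the lowest Eln of the hypoxia samples. Of 5 osteoblast markers 4 were tested and 2 were lower (Sp7 and Alpl; Ibsp also with the replicate block), with sums between 185 and 233 CPM in hypoxia and between 111 and 167 CPM in normoxia. Of 4 chondrocyte markers 3 were tested and 2 were lower (Col2a1 and Sox9). Acan (0.29 ± 0.32) was not called with or without the block. With the block and the correction for GC content and length it was called (limma-trend, adjusted p = 0.013). The sums lay between 906 and 1120 CPM and between 710 and 916 CPM, which overlap. Col2a1, at 919 ± 101 and 733 ± 86.4 CPM, made up most of them. The 4 adipocyte markers summed to at most 5.16 CPM, with Lep at 0. Among the markers of the sorted cells Eng was lower and Cd44 higher; with the replicate block Ly6a (-0.14), Pdgfrb (-0.15) and Thy1 (-0.41) were also called lower and Pdgfra (0.24) higher. The part of these cell types in the values of the elastic fibre genes was not tested.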

How the data were processed

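RNA was isolated from 8 samples, and the authors aligned single-end reads with zUMIs and STAR to mm10 and assigned them to Ensembl genes with featureCounts. The deposited table holds raw counts per gene, with no normalization. Strand and multimapping settings are not given in the sources used here. Symbols, positions and exon lengths came from GENCODE M21 (GRCm38).

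Genes were kept by filterByExpr (edgeR 4.0.16, minimum count 5) and scaled by TMM. Log2 CPM with a prior count of 3 were fitted by limma-trend (limma 3.58.1, R 4.3.3) over 14369 genes, with Benjamini-Hochberg adjustment at 0.05. Unless the replicate block is named, SEs and p-values come from the fit without it, which treats all samples as independent. They thus include the spread between replicate numbers, which the block removes. With the block the SE was 0.16 in place of 0.45 for Eln, and 0.11 in place of 0.20 for Fbn2. The study calls its replicates biologically independent. Log2 changes are normoxia minus hypoxia and understate changes of genes with few counts. The log2 ratio of Fbn2 to Fbn1 used counts per kilobase of exon.

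The edgeR quasi-likelihood test, DESeq2 1.42.0, limma-voom, other scalings, filters and prior counts, a correction for GC content and length (splines with 5 degrees of freedom for each, in 14353 genes), the replicate block and leaving out each sample were alternatives. The study divided sorted cells between the conditions, and same-numbered samples deviated together from their group means (r of 0.474, 0.275, 0.249 and 0.172 across genes), so the numbers were taken as pairs.

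The 10 genes, the pathway and marker lists, the tests and the alternatives were chosen with earlier results of these data known. The other pathway genes named are, in each group, at most the 3 called with the largest change. Lox, Efemp1, Ltbp1, Ltbp2, Ctsl, Adamtsl4, Adamts10, Glb1, Itgb5 and Tgfb2 were named after their values were seen. No batch is named in the labels.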

Additional observations from a re-analysis of the deposited data

Results flagged for a closer look

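Among 62 sets of 4 values (the levels of the elastic fibre genes and named pathway genes in each group, with the library totals), a sample stood apart in 3, by a distance from the other 3 that, relative to the range of the set, exceeded Dixon's critical value; about 3.1 would be found by chance. Fbln1 in normoxia replicate 2 was at a log2 CPM of 6.91, with the other normoxia samples between 6.50 and 6.52 (gap over range 0.951). Hypoxia replicate 2 was likewise the highest hypoxia sample for Fbln1. The total of hypoxia replicate 1 was 25132141 counts, with the other hypoxia samples between 12929564 and 13219647 (0.976). Without this sample 7 of the 10 genes were called lower and 1, Fbln2, higher, where 17.6% of all 14616 genes tested were called lower and 19.5% higher. Vcan in normoxia replicate 4 was at a log2 CPM of 7.84, with the others between 8.12 and 8.17 (0.862), and its change was called in each of the alternatives run.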

How the results depend on the processing

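Under 20 alternative settings between 7 and 10 of the 10 genes were called, while the share called of all genes tested lay between 17.8% (no filter) and 46% (replicate block), with 34.6% as reported. The setting that called all 10, the correction for GC content and length with the replicate block, called 6202 of 14353 genes (43.2%). The 7 genes called lower were called lower in each of them, and no direction changed among the 10 genes or among the pathway genes named by the rule, the only ones for which it was followed. Leaving out one sample at a time, 7 to 8 were called, and the calls over all genes numbered 3838 to 5423. With the replicate block, 8 of the 10 genes were lower and 1 higher, and the calls over all genes rose from 4970 to 6610; Fbln1 and Fbln2 were the calls gained among the 10. Of the pathway genes named by the rule, Loxl4, Tgfb3 and Furin lost their call in 10, 11 and 4 settings, and no other did so. The causes were not tested. The genes nearest to Fbn2 depended on the measure, with 0 of 5 shared. Depth limits Eln most, with 12 counts in its lowest sample.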
